A study of Mus musculus with 24 samples.

Results

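RNA bound by the J2 antibody was compared with total RNA in mouse mammary tumours treated with docetaxel. These are 6 of the 24 samples of the series and 3 of its 12 tumours, and were chosen by the treatment and antibody named in their labels. By its title the series concerns silencing of double-stranded RNA by IRE1α, a kinase and ribonuclease that senses misfolded protein in the endoplasmic reticulum and degrades selected RNAs. Every tumour is a transplant of 2153L, a p53-knockout, triple-negative mammary carcinoma line from a genetically engineered mouse. Fragments had been placed in cleared fat pads of female BALB/c hosts aged 6 to 8 weeks. Docetaxel, a taxane that stabilises microtubules, was injected into the peritoneum weekly at 10 mg/kg in Tween 80 and ethanol, and these mice were also given the vehicle used in the combination arm. The other arms received vehicle, ORIN1001 (given daily by gavage at 150 mg/kg to block IRE1α cleavage of RNA) or both drugs. Each docetaxel tumour gave 1 input library of total RNA and 1 J2 library, and the pair shares a replicate number. All tumours come from a single transplantable line, so they do not sample independent cancers, and host stroma is part of the bulk RNA.

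J2 recognises the backbone of long double-stranded RNA with little regard to sequence. In mammalian cells such RNA comes from transcription of both strands of the mitochondrial genome, from transposable elements (TEs), and from inverted repeats that fold back within introns and the untranslated ends of mRNAs. Cytosolic sensors such as MDA5 and PKR bind it, and ADAR enzymes edit it.

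The 3 docetaxel tumours were not alike, so counts of calls are given with and without tumour 3, and so are single values that tumour 3 moved by more than 1.5-fold. Gene counts, in M (mega), were 16.2, 63.3 and 3.27 M in the inputs of tumours 1, 2 and 3, and 17.9, 18.7 and 6.69 M in their J2 libraries. TE counts were 2.03, 7.62 and 2.11 M in the inputs and 3.85, 4.37 and 1.67 M in the J2 libraries. Ribosomal RNA rows held 0.75%, 0.963% and 70.5% of gene counts in the inputs of tumours 1, 2 and 3. In the J2 libraries they held 3.3%, 1.31% and 17.1%, so of the docetaxel libraries both of tumour 3 were the richest of their kind in ribosomal RNA. Outside docetaxel the inputs held 0.539% to 3.49% and the J2 libraries 1.42% to 58.9%, so the input of tumour 3 lay outside the range of the other treatments and its J2 library inside it. The epithelial keratin and junction markers were present in every docetaxel library, with summed levels of 3051, 3102 and 2065 CPM in the inputs. CPM here are counts scaled to library size with TMM factors. For genes these were 1.15, 1.18 and 0.263 in the inputs of tumours 1, 2 and 3, and 1.01, 1.05 and 1.09 in J2. A small factor raises CPM, so scaled levels in the input of tumour 3 stand well above its plain shares of counts. Fat cell markers Plin1 and Cidec together stood at 0, 0.147 and 130 CPM in the inputs and at 0, 0 and 2.2 CPM in the J2 libraries, and 2 of the list's 4 members passed the count filter. Tumour 3 thus carried a fat signal that the other pairs lacked. Trp53, the gene inactivated in the line, was counted at 37.3, 43.9 and 36 CPM in the inputs, and at 13.5, 18.1 and 29.4 CPM in J2, and a gene total does not show which exons the reads cover.

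The share of TE counts in all counts rose from 11.1% to 17.7% in tumour 1 and from 10.7% to 18.9% in tumour 2. In tumour 3 it fell from 39.2% to 20%. The J2 libraries lay close together at 18.9% ± 1.15 (SD, n = 3), and the inputs did not, at 20.3% ± 16.3. The mean difference of J2 less input was −1.44 percentage points ± 15.3 (exact sign-flip test, two-sided, p = 1, n = 3 pairs), and 3 pairs cannot give a p below 0.25. Without tumour 3 it was 7.4 percentage points. Mitochondrial rows fell in all 3 tumours, from 0.959% to 0.157%, from 0.951% to 0.293% and from 7.63% to 2.1% of gene counts (exact sign-flip test, two-sided, p = 0.25, the smallest possible).

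**Figure D1:**
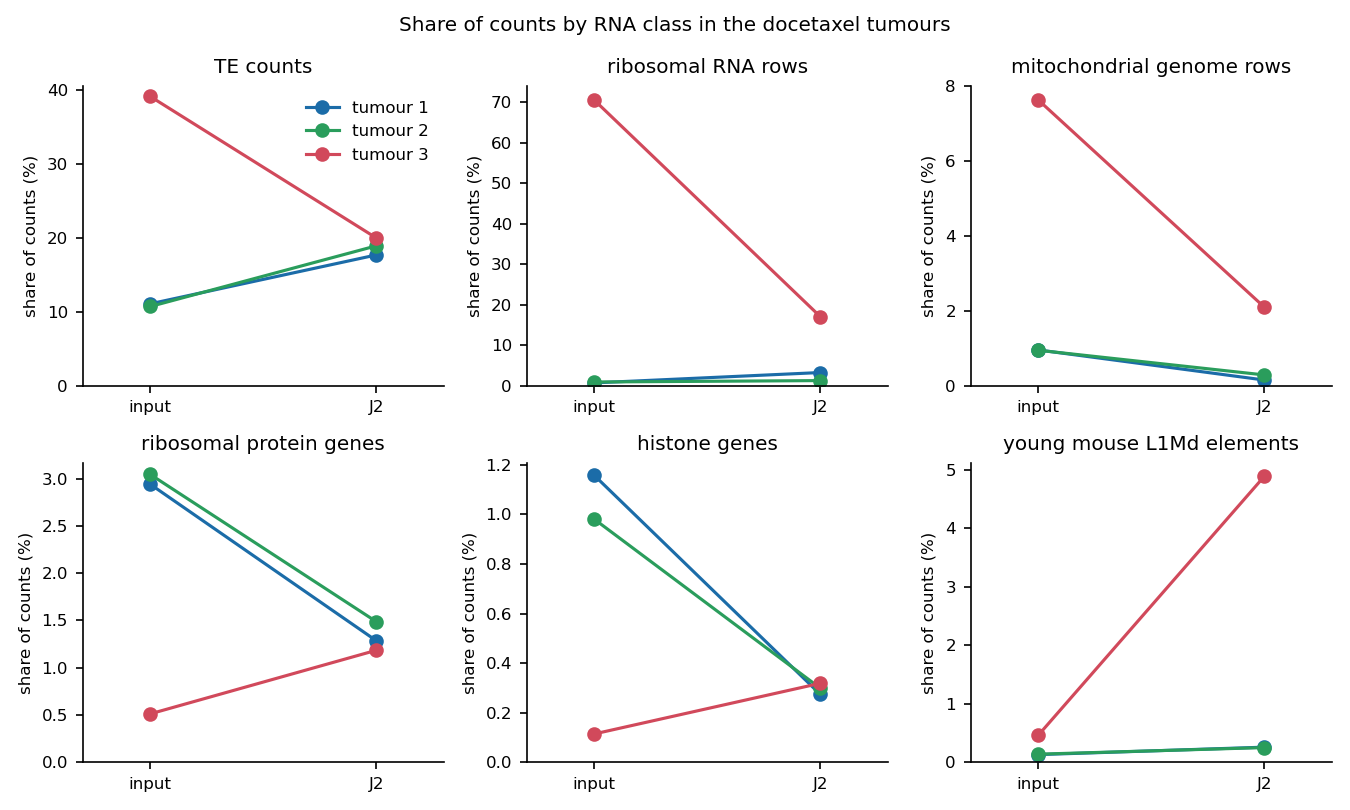
Share of counts (percent, vertical axis) in the input and J2 library of each docetaxel tumour, for 6 RNA classes; TE shares are of gene plus TE counts and the others of gene counts, and a line joins the libraries of 1 tumour. Tumours 1 and 2 lie close together, while the input of tumour 3 stands at 39.2% TE counts and 70.5% ribosomal RNA.

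Gene by gene, tumours 1 and 2 gave nearly the same J2-to-input ratio. Across the 17338 genes tested, Spearman's rho between the log2 ratios of tumours 1 and 2 was 0.80, against 0.07 for tumours 1 and 3 and 0.11 for tumours 2 and 3. These correlations are across genes, which are not independent replicates. J2 lay on the same side of input in tumours 1 and 2 for 81.4% of genes, and in all 3 tumours for 42.1%. The spread was also wider in tumour 3, where 48.7% of genes differed more than 2-fold from input, against 30.3% and 30.6%. For the 1046 TE names tested the contrast was sharper. The median log2 ratio was 1.11 in tumour 1, 1.29 in tumour 2 and −6.27 in tumour 3, and J2 exceeded input for 90.7%, 94.3% and 1.53% of names. The size of the ratios in tumour 3, and for some genes and TE families their direction, depends on the TMM scaling of its input.

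**Figure D2:**
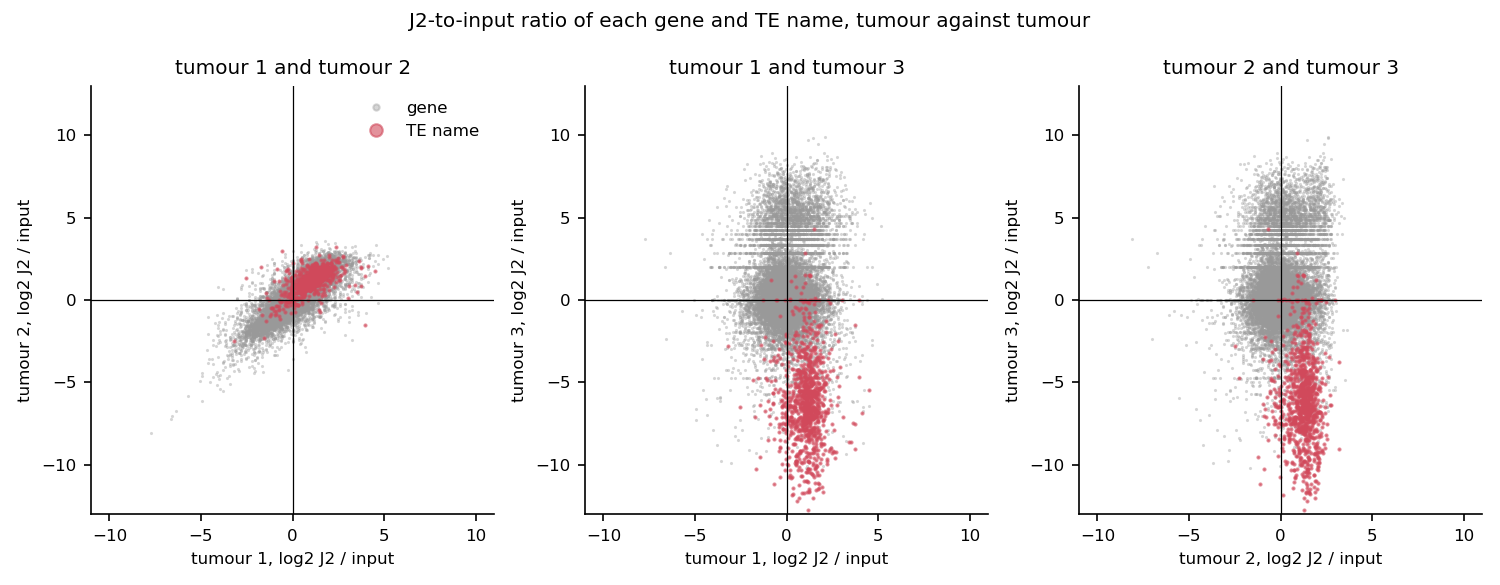
Log2 ratio of J2 to input in 1 docetaxel tumour against another (axes), with 1 point per gene (grey) or TE name (red). Tumours 1 and 2 fall along a diagonal with rho of 0.80 for genes, and in tumour 3 most TE names lie far below 0.

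The libraries of tumour 3 were also set against the mean of the 3 vehicle inputs, which share no library with the docetaxel pairs. The input of tumour 3 held TE names at a median of 3.93 log2 units above the vehicle inputs, while those of tumours 1 and 2 stood at −0.39 and −0.46. These levels are TMM-scaled, and the gene factor of that input was 0.263, against 1.15 to 1.24 for the vehicle inputs. In unscaled counts the TE share of the tumour 3 input was 39.2%, and inputs of the other treatments ranged from 11% to 29.5%. The J2 library of tumour 3 was unlike the other J2 libraries as well. Its TE names had a median of −2.46 relative to the vehicle inputs, against 0.67 and 0.80 in tumours 1 and 2. For genes, the ratio of the tumour 3 J2 library to vehicle input followed the J2 ratio of tumour 1 with a rho of 0.43 and that of tumour 2 with 0.32. The same rho was 0.72 for the J2 library of tumour 1 against the ratio of tumour 2, and 0.70 the other way round.

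With all 3 tumours, edgeR's quasi-likelihood test (tumour as a block, Benjamini-Hochberg adjusted p under 0.05) called 2074 of 17338 genes higher in J2 (12%) and 2072 lower (12%). Without tumour 3, with n = 2 docetaxel pairs and the spread shared with the other treatments, 3381 of 17890 genes were higher (18.9%) and 3736 lower (20.9%). Of the genes called higher with all 3 tumours, 2005 were also called higher without tumour 3, which is 96.7% of the first list and 59.3% of the second. Of those called lower, 1907 were shared, 92% and 51%. Without the block, 1084 genes were higher and 1097 lower with all 3 tumours. With total counts in place of TMM, 902 were higher and 155 lower with all 3, and the median of all genes moved to 0.39. The same scaling without tumour 3 gave 1992 higher and 3939 lower, and a median of −0.19. By edgeR the docetaxel libraries alone gave 0 calls with all 3 tumours (2980 genes at an unadjusted p under 0.05), and 3911 higher and 4186 lower with tumours 1 and 2.

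The largest falls in J2 among the named genes were in short structured RNAs and mitochondrial RNAs. Values from here on are log2 ratios of J2 to input ± SE from edgeR, with Benjamini-Hochberg adjusted p, and genes are given as levels in CPM before any ratio. Where levels are compared between tumours, fewer cells of a type and less RNA per cell cannot be told apart, since these are bulk tumours. Of 14 structured small RNAs tested, 0 were higher and 8 lower with all 3 tumours, at a median of −2.70. Without tumour 3, 10 were lower at a median of −3.68, beside a median of −0.02 over all genes in either fit. The Y RNA gene Rny3 (chromosome 6, 47781624 to 47781724 of GRCm38.p6), whose product is bound by the Ro60 protein, stood at 14.7, 19.3 and 2.32 CPM in the inputs and at 0.111, 0.102 and 0.412 CPM in J2. All 3 J2 libraries lay under all 3 inputs, and the ratio was −6.38 ± 0.76 (adjusted p = 0.000765) with tumour 3 and −7.26 ± 0.60 (adjusted p = 9.87e-07) without it. In tumour 3 the levels of Rny3 stand for 2 counts in the input and 3 in J2, too few to read a direction there. In that tumour 1 count is 1.16 CPM in the input and 0.137 CPM in J2, so low levels in that input rest on few counts. Rny1, another Y RNA, gave −7.37 ± 0.46 without tumour 3, whose own input held 0 CPM. Rnu12 (chromosome 15, 83149645 to 83149794), the U12 RNA of the minor spliceosome, went from 16, 17.9 and 8.13 CPM to 0.939, 0.611 and 5.08 CPM. In tumour 3 that fall rests on few input counts and depends on the TMM scaling. The ratio of Rnu12 moved from −3.45 ± 0.82 to −4.46 ± 0.72 on leaving tumour 3 out. Its partner Rnu11 gave −3.96 ± 0.48, and the vault RNA gene Vaultrc5 −3.94 ± 0.52, with all 3 tumours. Rprl3 (chromosome 8, 3803125 to 3803359), a gene for an RNA related to the RNase P subunit, was at 25.3, 27.5 and 58 CPM in the inputs and at 0.774, 0.356 and 30.6 CPM in J2. The scaled drop in tumour 3 was the smallest, and its direction there depends on the TMM scaling. The ratio was −3.79 ± 0.88 with tumour 3 and −5.56 ± 0.68 without.

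Mitochondrial transcripts, read from a genome transcribed on both strands, are given by strand. Of 12 heavy-strand mRNAs, 9 were tested; 8 were lower in J2 and 0 higher, both with and without tumour 3, at medians of −4.32 and −3.12. The mRNA of mt-Nd4, a subunit of respiratory complex I, stood at 428, 408 and 8573 CPM in the inputs and at 14, 19.2 and 55.2 CPM in J2. Every J2 value lay under every input value, and the ratio was −5.50 ± 0.90 (adjusted p = 0.00241), or −4.67 ± 0.86 without tumour 3. For mt-Nd2, also of complex I, the levels were 274, 299 and 5821 CPM against 8.9, 12.1 and 59.2 CPM, with a ratio of −5.39 ± 0.90, or −4.78 ± 0.93 without tumour 3. The tRNA gene mt-Ti fell by 5.93 ± 0.77 on the log2 scale. The small mitochondrial ribosomal RNA mt-Rnr1 (positions 70 to 1024 of the mitochondrial genome) stood at 1170, 1089 and 17821 CPM in the inputs and at 111, 66.8 and 8863 CPM in J2. In that gene the scaled drop was smallest in tumour 3, where its direction depends on the TMM scaling. The ratio was −2.86 ± 0.72 with tumour 3 and −3.72 ± 0.66 without.

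For genes on the other mitochondrial strand the direction turned on tumour 3. Of 6 light-strand genes tested, 3 reached the count minimum in at least 3 input libraries of the series. With all 3 tumours 0 were higher and 1 lower, at a median of −2.67. Without tumour 3, 2 were higher and 0 lower, at a median of 1.25. Without the tumour block and with all 3 tumours, 6 of 6 were lower, at a median of −7.05. Per tumour the median was 2.02, −0.12 and −8.40, and 5, 3 and 0 of the 6 lay above input. The glutamine tRNA gene mt-Tq stood at 1.28, 1.31 and 1355 CPM in the inputs and at 12.8, 5.5 and 3.57 CPM in J2. It was thus several times higher in J2 in tumours 1 and 2 (2.59 ± 0.54, adjusted p = 0.00139) and far lower in tumour 3, and with all 3 the ratio was 0.55 ± 1.70 (adjusted p = 0.842). The proline tRNA gene mt-Tp gave 1.32 ± 0.50 (adjusted p = 0.0447) without tumour 3 and −0.64 ± 1.16 with it. The only light-strand mRNA, mt-Nd6, was at 75.9, 104 and 68608 CPM in the inputs against 65.4, 52.4 and 264 CPM in J2, and did not pass in either fit (−2.16 ± 1.23, adjusted p = 0.213, and −0.60 ± 0.62, adjusted p = 0.461, without tumour 3).

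Messenger RNAs of the translation machinery, chromatin and energy metabolism were also lower in J2. Cytosolic ribosomal protein genes were lower for 66 of 85 and higher for 0, both with tumour 3 (median −1.30) and without it (median −1.63). As an unscaled share of gene counts they fell from 2.94% to 1.29% in tumour 1 and from 3.04% to 1.49% in tumour 2. In tumour 3 that share rose from 0.513% to 1.18%. Rpl36 (chromosome 17, 56610094 to 56614246), a large-subunit protein gene, went from 194, 216 and 74.3 CPM to 7.57, 26.1 and 36.1 CPM, and its fall in tumour 3 depends on the TMM scaling. Its ratio was −3.00 ± 0.60 with tumour 3 and −3.82 ± 0.49 without. Rps28 gave −2.28 ± 0.36, Rps21 −1.87 ± 0.48 (−2.79 ± 0.22 without tumour 3) and Rpl23 −1.55 ± 0.24 with all 3. The count of 66 fell to 32 without tumour 1, to 31 without tumour 2 and to 3 with total counts in place of TMM, where 155 of all genes were lower. Ribosomal protein genes have many processed pseudogenes, so their counts are uncertain where reads could be split.

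Replication-dependent histone genes, whose mRNAs end in a stem-loop in place of a poly(A) tail, were lower for 47 of 62 with tumour 3 and for 58 of 62 without it, and higher for 0 in either fit. Hist2h2bb stood at 34.4, 31 and 4.64 CPM in the inputs and at 1.38, 2.19 and 3.02 CPM in J2, with a ratio of −3.56 ± 0.57 (−4.19 ± 0.38 without tumour 3). In tumour 3 these levels stand for 4 counts in the input and 22 in J2, and the fall there depends on the TMM scaling. Hist1h2ai gave −3.22 ± 0.38 and Hist1h4f −1.84 ± 0.35 (−2.43 ± 0.19 without tumour 3). In tumour 3 the median histone ratio was 0.24 and 35 of 62 genes lay above input, so the tumour went against the other 2 here, with a histone share of 0.115% in its input beside 1.16% and 0.98%. Nuclear genes of the respiratory chain showed the same division. They were lower for 46 of 76 with tumour 3 and 73 of 76 without, and medians per tumour were −1.46, −1.44 and 0.38. With all 3 tumours and total counts, 9 of 62 histone genes and 2 of 76 respiratory chain genes were lower. Without tumour 1 the counts were 15 and 14, and without tumour 2 they were 15 and 11. Ndufc1, of complex I, gave −2.48 ± 0.21 (adjusted p = 0.000118) and Uqcrb, of complex III, −2.05 ± 0.25 with all 3 tumours. Among other short mRNAs, Tmsb10 (chromosome 6, 72957347 to 72958748), which encodes an actin-binding thymosin, went from 349, 295 and 562 CPM to 25.3, 21.6 and 279 CPM (−2.92 ± 0.55, or −3.78 ± 0.42 without tumour 3). Its fall in tumour 3 depends on the TMM scaling. S100a9, a calcium-binding protein gene of neutrophils, went from 11.7, 11.2 and 1.16 CPM to 0.829, 0.814 and 0 CPM, and the snoRNA host gene Snhg8 fell by 2.79 ± 0.64 on the log2 scale, or by 3.68 ± 0.64 without tumour 3. In tumour 3 the levels of S100a9 stand for 1 count in the input and 0 in J2.

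**Figure D3:**
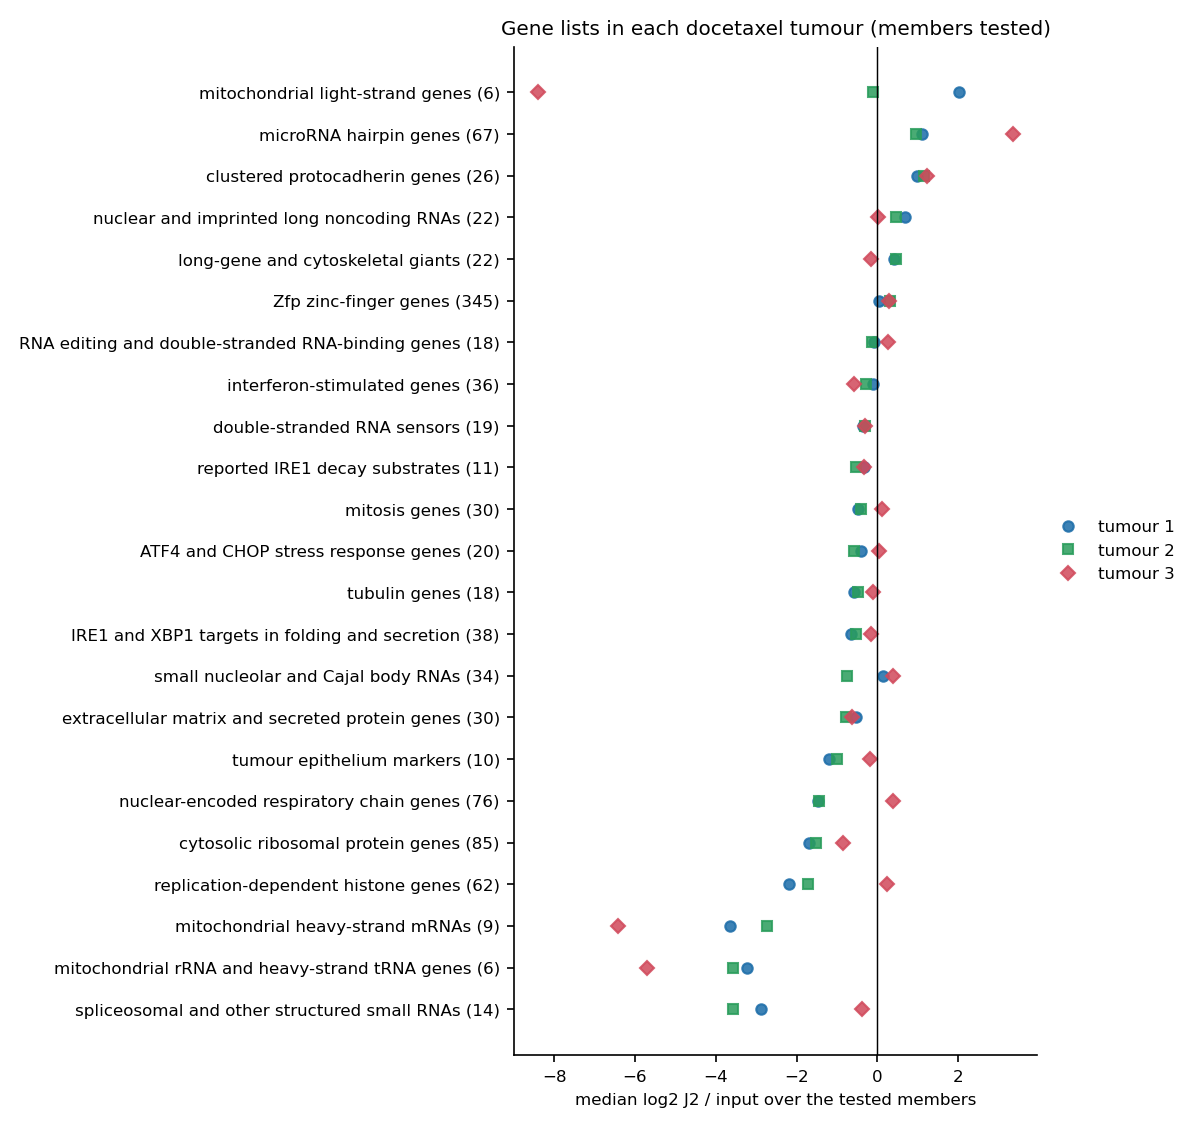
Median log2 ratio of J2 to input (horizontal axis) over the tested members of each gene list, with 1 symbol per docetaxel tumour and the number of tested members in brackets. Small RNAs, mitochondrial heavy-strand genes, histone and ribosomal protein genes lie at the bottom, and tumour 3 lies apart from the other tumours for several lists, among them mitochondrial light-strand and heavy-strand genes, structured small RNAs, microRNA hairpins, histones and the respiratory chain.

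Size went with direction. Of the genes tested without tumour 3, 86.7% were matched to RefSeq by symbol, and the 13669 protein-coding ones were split into quintiles by the genomic span of the gene, introns included. In the shortest quintile, up to 8.26 kb, 5.16% were higher in J2 and 45.4% lower, at a median of −0.67. In the longest quintile, from 70.8 kb, 28.1% were higher and 8.6% lower, at a median of 0.23. The medians of the quintiles between were −0.30, −0.14 and 0.06 in order of span, and Spearman's rho between span and log2 ratio was 0.39 across genes. In tumours 1 and 2 the shortest quintile had medians of −0.61 and −0.70. In tumour 3 it was at 0.33 and the longest quintile at 0.12, so the gradient was not seen there.

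Transcripts enriched in J2 included genes with ordinary mRNA levels and very high J2 levels in tumours 1 and 2. Slc5a3 (chromosome 16, 92058322 to 92087473), which encodes a myo-inositol transporter and lies within the span of Mrps6, stood at 417, 270 and 404 CPM in the inputs and at 5400, 1617 and 480 CPM in J2. J2 exceeded all inputs in each tumour, at these scaled levels by far the least in tumour 3. The ratio was 2.24 ± 0.57 (adjusted p = 0.0141) with tumour 3 and 3.14 ± 0.45 (adjusted p = 7.84e-05) without. Reads of Slc5a3 and Mrps6 may not be separable where they overlap.

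Ptpn4 (chromosome 1, 119652467 to 119837585), a cytoplasmic tyrosine phosphatase gene, went from 146, 153 and 67.3 CPM to 1057, 1128 and 98.6 CPM. Its ratio was 2.21 ± 0.41 with tumour 3 and 2.87 ± 0.32 without. Snx27 (chromosome 3, 94497542 to 94582736), a sorting nexin of endosomes, went from 162, 130 and 110 CPM to 1538, 615 and 145 CPM (2.03 ± 0.46, or 2.74 ± 0.37 without tumour 3). Zc3hav1l (chromosome 6, 38287394 to 38299259), a relative of the antiviral zinc-finger gene Zc3hav1, went from 47.5, 42.9 and 18.6 CPM to 395, 227 and 23.8 CPM. In these genes J2 exceeded input in each tumour, and tumour 3 showed the smallest scaled ratio. The TMM factors of tumour 3 were 0.263 for its input and 1.09 for J2. How its ratios compare with those of tumours 1 and 2 therefore depends on the scaling. For these genes and Slc5a3, the naming rule required J2 on the same side of input in all 3 tumours. It then ranked the rises without tumour 3. Both traits are thus in part set by the choice, and 42.1% of all genes lay on the same side in all 3. Itgb1bp2, which encodes melusin, was lowly expressed, at 0.589, 0.335 and 3.48 CPM in the inputs and 4.37, 2.6 and 4.26 CPM in J2 (2.56 ± 0.46 with all 3 tumours).

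Among 22 nuclear and imprinted long noncoding RNAs, 5 were higher and 3 lower with tumour 3, and 10 higher and 4 lower without it. Tug1 (chromosome 11, 3639785 to 3648814) stood at 192, 181 and 130 CPM in the inputs and at 1301, 1113 and 136 CPM in J2, with a ratio of 1.91 ± 0.41 (2.69 ± 0.24 without tumour 3). Xist (chromosome X, 103460373 to 103483233), the RNA that silences an X chromosome in females and overlaps the antisense gene Tsix, rose in all 3 tumours, by similar amounts under TMM scaling. Its levels were 736, 780 and 1841 CPM in the inputs and 2905, 2893 and 6454 CPM in J2 (1.89 ± 0.30, adjusted p = 0.00224). Kcnq1ot1 (chromosome 7, 143213111 to 143296547), an imprinted antisense RNA within Kcnq1, likewise went from 270, 315 and 924 CPM to 967, 1278 and 2185 CPM (1.70 ± 0.38). Airn, the antisense RNA of the imprinted Igf2r locus, went from 2.46 to 18.8 CPM and from 2.77 to 14.4 CPM in tumours 1 and 2, and from 24.4 to 14 CPM in tumour 3. Its ratio was 1.80 ± 0.50 with tumour 3 and 2.62 ± 0.25 without, and its fall in tumour 3 depends on the TMM scaling. For Xist and Kcnq1ot1 every J2 level lay above every input level.

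**Figure D4:**
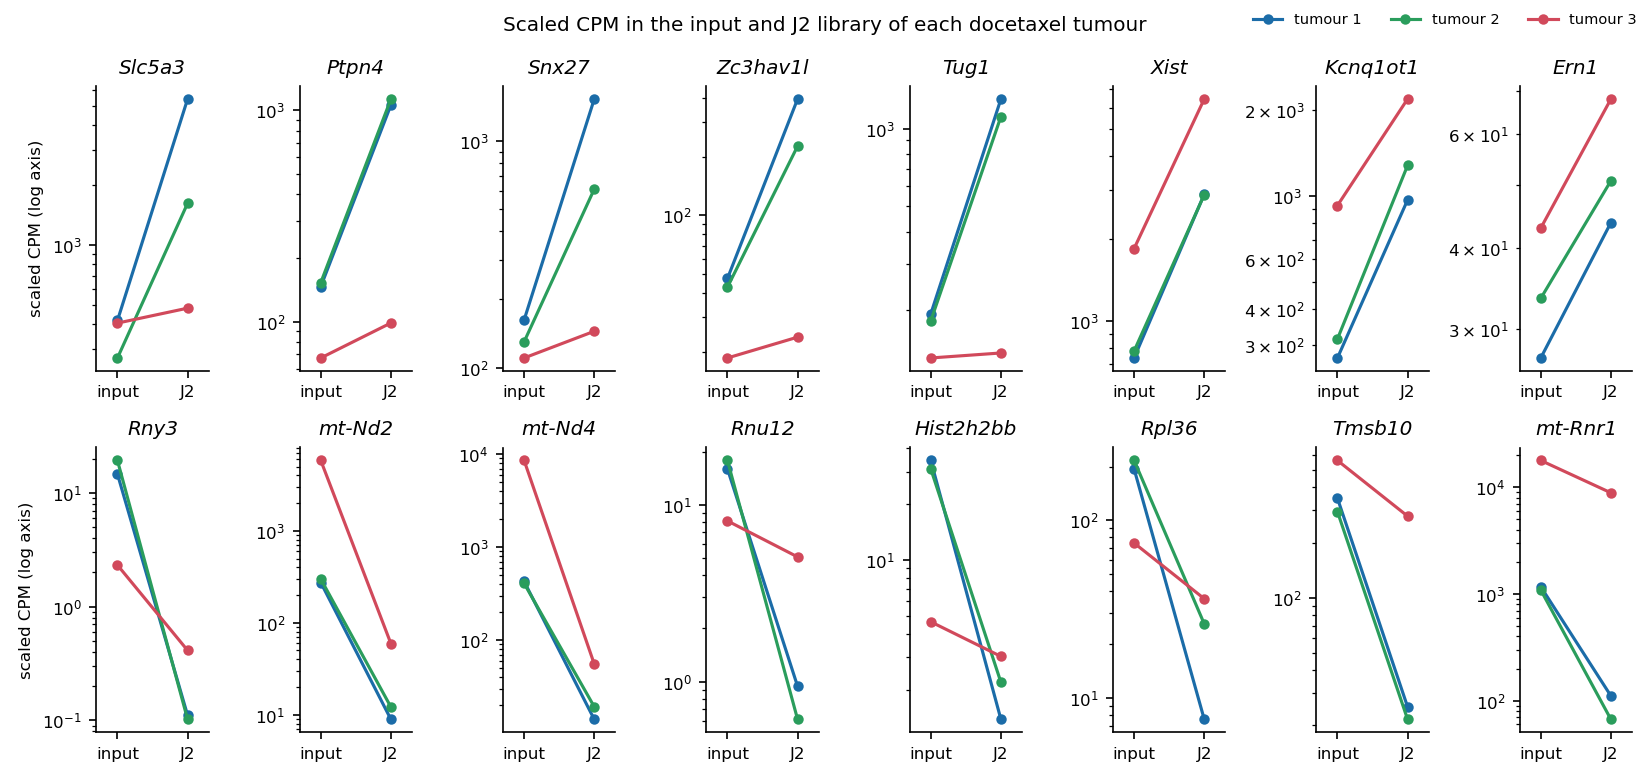
Scaled CPM on log axes in the input and J2 library of each docetaxel tumour, for 8 genes that rose (top row) and 8 that fell (bottom row); a line joins the libraries of 1 tumour and each panel has its own scale. At these scaled levels Xist, Kcnq1ot1 and Ern1 rise in parallel in all 3 tumours, while Slc5a3, Ptpn4, Snx27, Zc3hav1l and Tug1 rise less in tumour 3. The TMM factors of tumour 3 were 0.263 in its input and 1.09 in J2, so this contrast depends on the scaling. The fall of Rnu12, Hist2h2bb, Rpl36, Tmsb10 and mt-Rnr1 in tumour 3 depends on it too. The rule that named the largest rises and falls required the same side of input in all 3 tumours.

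MicroRNA hairpin genes have transcripts that fold back into a short imperfect duplex. Of 67 tested with tumour 3, 14 were higher and 5 lower (median 0.84). Without it, 22 of 79 were higher and 4 lower (median 1.22). The counts are small. Of these 79 genes, 33 reached the count minimum in at least 3 input libraries of the series, so the others had to be high elsewhere to be tested, and the counts and medians describe the tested genes only. Leaving out tumour 1 gave 1 higher and 4 lower, and leaving out tumour 2 gave 0 and 2. Counts of Mir7-1 were 7, 15 and 0 in the inputs and 32, 33 and 8 in J2 (2.71 ± 0.46, adjusted p = 0.00265). For Mir1898 they were 5, 26 and 0 against 28, 44 and 4, for Mir3058 1, 12 and 0 against 19, 20 and 10, for Mir5128 0, 11 and 1 against 24, 20 and 17, and for Mir1955 1, 27 and 0 against 20, 42 and 21. Mir1b, another hairpin gene, had 2, 12 and 0 counts in the inputs and 28, 31 and 21 in J2 (3.48 ± 0.76). These counts are at the hairpin's gene row in a total RNA library, and are not a measure of the mature microRNA.

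Of the 22 hairpin genes that rose without tumour 3, 18 were matched to RefSeq (build GRCm38.p6), and all 18 lay within the span of another gene. So did 56 of all 63 tested hairpins that were matched. The hosts of the 18 had a median log2 ratio of 0.40, against 0.20 over the tested hosts of all matched hairpins. Of the hosts of the 18, 8 were higher, 2 lower, and the others did not pass, beside 18.9% higher and 20.9% lower of all genes. Mir7-1 (chromosome 13, 58392779 to 58392886) lies in Hnrnpk, whose own ratio was −0.95 ± 0.20 beside 2.69 ± 0.46 for the hairpin. Mir1898 (chromosome 15, 12171492 to 12171574) lies in Zfr, at 0.20 ± 0.22, Mir3058 (chromosome 10, 95559231 to 95559321) in Nudt4, at 0.23 ± 0.18, and Mir1955 (chromosome 2, 92191977 to 92192074) in Phf21a, at 0.41 ± 0.17. Mir5128 (chromosome 2, 37688201 to 37688284) lies in Strbp, at 1.43 ± 0.27. The hairpins were named for their rise in J2, so a ratio above that of the host is in part set by the choice, and the difference was not tested. Counts at a hairpin's gene row do not show whether the reads came from its duplex or from the host transcript. Mature sequences that RefSeq lists for these hairpins follow. The seed (bases 2 to 8) is in capitals, and no 2 of them share a seed.
mmu-miR-7a-5p: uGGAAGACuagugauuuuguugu
mmu-miR-1898: aGGUCAAGguucacaggggauc
mmu-miR-3058-5p: uCAGCCACggcuuaccuggaaga
mmu-miR-5128: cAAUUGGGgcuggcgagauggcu
mmu-miR-1955-5p: aGUCCCAGgaugcacugcagcuuuu

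The hairpins of 3 of them are printed to show the fold-back itself, with the mature arms listed by RefSeq in capitals. RNAfold formed 44 base pairs in the 108 bases of Mir7-1, 24 in the 83 of Mir1898 and 32 in the 91 of Mir3058.
Mir7-1: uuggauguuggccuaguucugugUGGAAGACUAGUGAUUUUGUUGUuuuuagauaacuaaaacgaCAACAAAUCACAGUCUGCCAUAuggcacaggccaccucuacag
Mir1898: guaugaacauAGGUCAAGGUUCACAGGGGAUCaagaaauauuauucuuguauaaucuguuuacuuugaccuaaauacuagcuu
Mir3058: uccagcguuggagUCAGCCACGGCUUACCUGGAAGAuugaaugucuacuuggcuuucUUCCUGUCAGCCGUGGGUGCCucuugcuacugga

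Clustered protocadherins, adhesion genes whose isoforms share their last exons, were higher for 10 of 26 and lower for 0 with tumour 3, and higher for 15 of 28 and lower for 1 without it. Their medians per tumour were 0.97, 1.15 and 1.24, so here tumour 3 did not stand apart under TMM scaling. Pcdhga10 had 6, 27 and 1 counts in the inputs and 63, 43 and 16 in J2 (2.78 ± 0.51), Pcdhgb7 gave 2.64 ± 0.46 and Pcdhga11 2.51 ± 0.46. Reads in the shared exons cannot be assigned to 1 isoform, and the 3 genes are not independent. Of 345 Zfp zinc-finger genes 52 were higher and 11 lower, beside 12% of all genes in each direction. Without tumour 3, 81 of 349 were higher and 32 lower, without tumour 2 it was 4 and 1, and with total counts 12 and 0. Zfp398 was at 1.96 ± 0.39 (2.64 ± 0.24 without tumour 3) and Zfp704 at 1.16 ± 0.34 (1.87 ± 0.19). Among 34 snoRNA and Cajal body genes 2 were higher and 6 lower (4 and 9 of 35 without tumour 3), with Snora30 at 2.58 ± 0.57. Of 22 very long genes, 1 was higher with tumour 3 (Vps13b, 0.82 ± 0.18) and 8 without it, 0 were lower, and the ubiquitin ligase gene Huwe1 gave 0.76 ± 0.20 without tumour 3.

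The IRE1α pathway itself was split. Ern1 (chromosome 11, 106397620 to 106487796), which encodes IRE1α, was at 27.1, 33.5 and 43 CPM in the inputs and at 43.8, 50.8 and 68 CPM in J2. It rose in all 3 tumours (0.65 ± 0.16, adjusted p = 0.011; 0.65 ± 0.17 without tumour 3). Xbp1 (chromosome 11, 5520641 to 5525993), whose mRNA IRE1α splices, went from 89.9 to 210 CPM and from 79.5 to 171 CPM in tumours 1 and 2, and from 138 to 52.2 CPM in tumour 3. It passed without tumour 3 (1.16 ± 0.19, adjusted p = 0.000261) and not with it (0.41 ± 0.37, adjusted p = 0.45). The fall of Xbp1 in tumour 3 depends on the TMM scaling. The 2 splice forms of Xbp1 share a gene row.

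Folding and secretion genes driven by IRE1 and XBP1 were lower for 17 of 38 and higher for 1 with all 3 tumours, against 20 lower and 5 higher without tumour 3. With all 3 and total counts, 1 was lower and 1 higher, and leaving out tumour 1 or 2 left 4 or 5 lower. Sec61g, of the translocation channel, gave −2.43 ± 0.33, the chaperone partner gene Sdf2l1 −1.70 ± 0.29 and the translocon-associated Ssr4 −1.30 ± 0.23. Spcs3, a signal peptidase subunit on chromosome 8 (54520433 to 54529998), was the rise, from 172, 253 and 370 CPM to 1221, 1388 and 328 CPM. It was higher in tumours 1 and 2 (1.78 ± 0.45 with all 3 tumours, adjusted p = 0.0138, and 2.64 ± 0.27 without tumour 3). In tumour 3 it was slightly lower, and that direction depends on the TMM scaling. Of 11 transcripts reported as IRE1 decay substrates, 4 were lower and 0 higher with tumour 3 (5 and 1 without it, and 0 and 0 with total counts). The 4 were Col6a1 (−1.37 ± 0.29), Sparc (−0.86 ± 0.18), Pmp22 (−0.97 ± 0.26) and Pdk2 (−0.75 ± 0.20). The median of these substrates was −0.34, and 0.16 with total counts in place of TMM, where the median of all genes was 0.39.

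With all 3 tumours 0 sensors of double-stranded RNA and 0 interferon-stimulated genes were called higher by edgeR. Of 19 sensors and their adaptors, 4 were lower and 0 higher, beside 12% of all genes in each direction, and without tumour 3 it was 6 and 0. With total counts 0 were called, also 0 without tumour 2. The sensors lay at a median of −0.32 in tumour 3 and of −0.35 and −0.30 in tumours 1 and 2. Eif2ak2, which encodes PKR, gave −0.57 ± 0.19, Dhx58, which encodes LGP2, −0.63 ± 0.20, and the transcription factor gene Irf3 −0.75 ± 0.24. With total counts the sensor median became 0.20 and that of interferon-stimulated genes went from −0.30 to 0.18, both still under the 0.39 of all genes, and 0 of either list were called. Of 36 interferon-stimulated genes, 7 were lower and 0 higher with tumour 3, among them Isg15 (−1.60 ± 0.26), Ifi27 (−1.51 ± 0.17) and the immunoproteasome gene Psmb8 (−1.27 ± 0.22). Without it 11 were lower and 3 higher, and Dtx3l, a ubiquitin ligase gene, stood at 69.2, 94 and 425 CPM in the inputs and at 548, 467 and 76.6 CPM in J2. Among genes for editing and binding of double-stranded RNA, 3 of 18 were higher and 2 lower with tumour 3 (median 0.09), and 4 higher and 5 lower without it (median −0.01), with the editing enzyme gene Adarb1 at 0.95 ± 0.17 and Strbp at 1.25 ± 0.25.

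Tubulin, mitosis, stress, matrix and epithelial genes had more members called lower than higher under TMM scaling. With all 3 tumours and total counts, 0 of the tubulin, mitosis, matrix and epithelial genes were called, and of the stress genes 1 was higher. Of 18 tubulin genes 6 were lower and 1 higher (8 and 2 without tumour 3), with Tubg1 at −1.37 ± 0.33, Tubb2a at −1.37 ± 0.26 and the rise being Tubgcp3, of the gamma-tubulin complex, at 0.85 ± 0.18. Of 30 mitosis genes 5 were lower and 1 higher with tumour 3, and 16 and 3 without it, beside 12% of all genes lower with tumour 3 and 20.9% without. The kinase gene Plk1 gave −1.07 ± 0.24 and the centromeric histone gene Cenpa 0.78 ± 0.23. ATF4 and CHOP response genes were lower for 5 of 20 (10 without tumour 3, with 2 higher), with Ddit3 at −1.27 ± 0.25, and higher for 1, the cystine transporter gene Slc7a11 (1.73 ± 0.32). With total counts the medians turned from −0.31 to 0.17 for mitosis genes and from −0.24 to 0.24 for ATF4 and CHOP genes. Extracellular matrix genes were lower for 11 of 30 and higher for 0 (16 and 0 without tumour 3), with Spp1 at −1.29 ± 0.31 and Col6a3 at −0.90 ± 0.18. Epithelial markers were lower for 7 of 10 and higher for 0 (8 and 0 without tumour 3), with Krt8 at −1.10 ± 0.30, Krt18 at −0.76 ± 0.20 and Epcam at −0.90 ± 0.25.

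For transposable elements, as for mitochondrial light-strand genes, the result turned on tumour 3. With all 3 tumours, 0 of 1046 TE names were higher (0%) and 0 lower (0%) by edgeR, and 30 had an unadjusted p under 0.05. DESeq2 called 0 higher and 4 lower, and the fit without the block 0 and 293. Without tumour 3, 755 of 1052 names were higher (71.8%) and 20 lower (1.9%), at a median of 1.20. With limma-voom and sample weights, which keep tumour 3, 699 were higher and 20 lower. The rise is relative to genes. When the TE table was scaled by TE counts alone, 5 names were higher and 60 lower without tumour 3, and the median was 0.02.

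Without tumour 3 the median lay above 0 in all 13 TE families. Median ratios went from 0.27 for satellite repeats to 1.40 for DNA transposons, long immobile in the mouse. The LTR elements of MERVL and MaLR were higher for 102 of 112 names and lower for 1, B1 SINEs for 15 of 15 and older LINEs for 94 of 116. In tumours 1 and 2 the family medians lay between 0.16 and 1.51. In tumour 3 every family lay below 0 except the young L1Md LINEs, at 0.70, where tumours 1 and 2 had 1.27 and 1.20. These medians are TMM-scaled, and for some families the direction in tumour 3 depends on that. As an unscaled share of all counts, B2 and B3 SINEs rose there in J2 from 4.99% to 5.61%. Rodent L1 and Lx elements rose from 1.57% to 2.98%, and the families other than these and L1Md fell. MERVL-int, the coding part of an endogenous retrovirus active in early embryos, stood at 174, 182 and 7343 CPM in the inputs and at 806, 622 and 316 CPM in J2. It was 1.96 ± 0.23 (adjusted p = 3.56e-05) without tumour 3 and 0.51 ± 1.13 (adjusted p = 1) with it, and its LTR MT2_Mm gave 1.80 ± 0.19 and 0.61 ± 0.73. The LTR of an intracisternal A particle, IAPLTR2_Mm, gave 1.94 ± 0.22 without tumour 3. CPM of TE names are relative to gene plus TE counts together.

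Young LINE and B2 SINE names kept high levels in both libraries of tumour 3. L1Md_A, a full-length and still mobile LINE subfamily, was at 134, 137 and 2409 CPM in the inputs and at 329, 314 and 7003 CPM in J2. J2 exceeded input in each tumour, at 1.34 ± 0.52 (adjusted p = 1) with tumour 3 and 1.22 ± 0.52 (adjusted p = 0.0465) without. L1Md_F2 reached 29017 CPM in the J2 library of tumour 3, beside 1229 and 1174 CPM in the other J2 libraries. As a share of all counts, L1Md names made up 0.26%, 0.253% and 4.88% of the J2 libraries, and 0.133%, 0.141% and 0.465% of the inputs. J2 libraries of the other treatments ranged from 0.113% to 6.38%, so the level in tumour 3 lay within their range. The B2 element B2_Mm2 stood at 2495, 2491 and 48063 CPM in the inputs and 5813, 5328 and 23508 CPM in J2. The TE table also holds names that are not transposons, among them 7SK, a nuclear RNA that restrains transcription elongation. It was at 10858, 8120 and 91681 CPM in the inputs and at 3733, 1676 and 3472 CPM in J2 (−2.79 ± 0.67, adjusted p = 0.441, and −1.94 ± 0.35, adjusted p = 0.000478, without tumour 3).

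**Figure D5:**
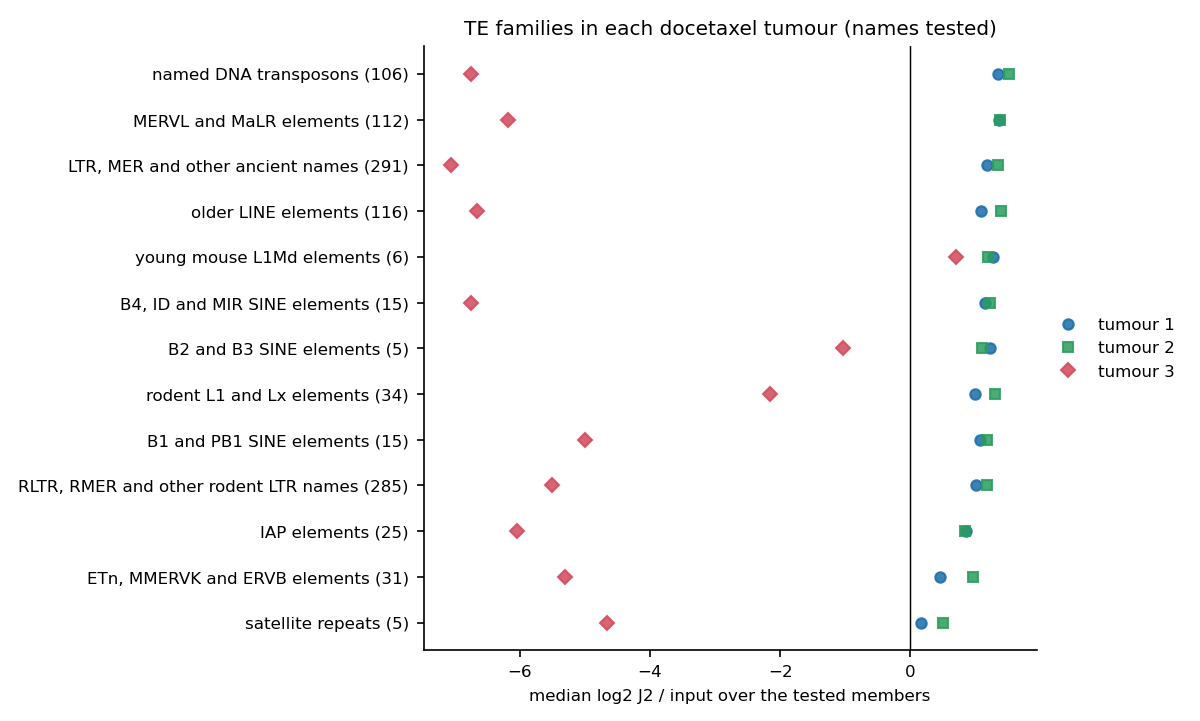
Median log2 ratio of J2 to input (horizontal axis) over the tested names of each TE family, with 1 symbol per docetaxel tumour and the number of names in brackets. Tumours 1 and 2 lie above 0 in all families, and tumour 3 lies below 0 in all but the young L1Md elements. Ratios are TMM-scaled. In tumour 3 the unscaled shares of B2 and B3 SINEs and of rodent L1 and Lx elements rose in J2.

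The docetaxel ratios were set against those of the other treatments by the contrast of the docetaxel coefficient with the mean of the other 3. With all tumours 427 of 17338 genes differed (2.46%), 278 with a higher ratio under docetaxel and 149 with a lower one. Without docetaxel tumour 3 there were 1379 of 17890 (7.71%). No TE name differed with all tumours (0 of 1046, 0%; 21 had an unadjusted p under 0.05, and 2 differed by DESeq2). Without docetaxel tumour 3, 594 of 1052 differed (56.5%). When the combination tumours were left out too, so that docetaxel tumours 1 and 2 faced vehicle and ORIN1001, 0 genes (1987 at an unadjusted p under 0.05) and 1 TE name differed by edgeR. Without docetaxel tumour 2, 0 genes differed (2454 unadjusted), and without tumour 1, 800 did. With all tumours DESeq2 gave 1638 genes.

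Side by side, docetaxel without tumour 3 and vehicle, which share no library, called many of the same genes. Without tumour 3, 18.9% of all genes tested and 71.8% of TE names were higher under docetaxel. Those are the shares to set beside each overlap given as a percent of another treatment's list. Of the 3381 genes higher under docetaxel and the 4859 higher under vehicle, 3009 were shared, 89% and 61.9% of the lists, and 1 gene was called in opposite directions. For TE names 681 were shared, 90.2% of 755 and 88.7% of 768, with 1052 names tested. With ORIN1001 2333 genes were shared, 69% and 63.6%, and 212 TE names, 28.1% of 755 and 93.4% of 227. The combination called 3800 of 17890 genes higher and 4423 lower. Of the genes called higher, 866 were shared with docetaxel, 25.6% and 22.8%, and the 22.8% lay near the 18.9% of all genes. In opposite directions 1581 were called, 22.2% of the 7117 genes called under docetaxel and 19.2% of the 8223 called under the combination. The 19.2% lay near the 18.9% higher and 20.9% lower of all genes under docetaxel. Of the 1052 TE names, the combination called 148 higher and 597 lower. Between docetaxel without tumour 3 and the combination, 461 were called in opposite directions, 59.5% of the 775 called under docetaxel. Lists of this size share many names by their size alone. Whether 461 exceeds that was not tested.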

How the data were processed

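The deposited values are whole-number counts per gene (53465 rows) and per TE name (1146 rows) for 24 libraries. The submitters' processing notes name mm10 as the build, and list featureCounts 2.0.3, STAR 2.7.3a and fastp 0.23.2. Per the labels' protocols, ribosomal RNA was depleted and libraries kept strand. How strand and multi-mapping reads were counted is not given in the sources used here, so overlapping, antisense and repeated genes carry uncertain counts. Symbols were matched for 53274 gene rows. Counts were fitted with edgeR 4.0.16 in R 4.3.3 on all 24 libraries (TMM, filterByExpr with minimum count 10 and minimum total 15, quasi-likelihood F test, Benjamini-Hochberg adjustment, threshold 0.05), blocked by tumour, with a separate J2 coefficient for each treatment. TE names were fitted on a joint table with the genes and adjusted among themselves. SE is the log2 ratio divided by the root of F. Ratios per tumour use log2 CPM with a prior count of 1. The pairing comes from the labels, and after group means were removed the input and J2 deviations of docetaxel tumours 1, 2 and 3 correlated at 0.24, 0.34 and 0.24. Chi-square over its degrees of freedom was at least 37.7 between docetaxel replicates, so none looked like 1 library entered under a pair of names. The fit was tested on simulated data. DESeq2 1.42.0, limma 3.58.1 (voom), other scalings and filters, and each tumour left out were tried as alternatives. Hairpins were folded with ViennaRNA 2.7.2 (RNAfold), and sequences and coordinates are RefSeq's for GRCm38.p6. The gene lists, TE families and comparisons were chosen with earlier results of these data known. Genes are named by a rule: an adjusted p under 0.05 with or without tumour 3, J2 on the same side of input in all 3 docetaxel tumours, average log2 CPM not under 0, and no gene-model or pseudogene symbol, of which the 12 largest rises and 12 largest falls without tumour 3 were taken. Added were Ern1, Xbp1 and Trp53, up to 4 members of each list and 3 names of each TE family with the smallest p, and the 5 smallest p in each direction of the contrast with the other treatments. Tests were two-sided, and the tumours are biological replicates per the labels.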

Additional observations from a re-analysis of the deposited data

Results flagged for a closer look

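For 10 named genes the docetaxel ratio of J2 to input differed from the mean of the other 3 treatments by edgeR's test of that contrast, with all 3 docetaxel tumours. The ratio was higher under docetaxel for Ap3m1 by 1.33 , for Mrpl17 by 1.05, for Phxr4 by 3.19, for Ppnr by 2.27 and for Ttpa, which encodes the vitamin E transfer protein, by 1.46. The difference was −1.63 for Col1a2 and −2.23 for Col2a1, both fibrillar collagen genes, −1.61 for Rps27a and −1.25 for Dnajb2, a co-chaperone gene. Each of these 9 kept its direction and its call without docetaxel tumour 3, and none passed when the combination tumours were left out as well. Col1a2 had log2 ratios of −0.79 under docetaxel, −0.01 under vehicle, 0.38 under ORIN1001 and 2.16 under the combination, and Ppnr had 1.86, 1.34, −0.19 and −2.39 in the same order. Car3, a carbonic anhydrase gene of muscle and fat, differed by −5.18 ± 0.90 (adjusted p = 0.0296), and by −1.08 ± 1.45 (adjusted p = 0.678) without docetaxel tumour 3. It stood at 0.107, 0.134 and 302 CPM in the docetaxel inputs and at 0, 0.0509 and 3.57 CPM in J2, where the fat cell markers Plin1 and Cidec were also counted mainly in tumour 3. Their part in the result was not tested.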

How the results depend on the processing

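Counts of genes higher in J2 (2074) moved to 4260 with limma-voom, 902 with total counts and 1084 without the tumour block, and leaving out 1 docetaxel tumour gave 140 to 3381. The count of genes lower (2072) moved to 4398, 155 and 1097, with 356 to 3736 on leaving out a tumour. The docetaxel libraries alone gave 0 and 0, and tumours 1 and 2 alone 3911 and 4186. TE names higher (0) became 699 with limma-voom and 853 with tumours 1 and 2 alone, with 0 to 755 on leaving out a tumour. TE names lower (0) became 293 without the block, 4 with DESeq2, 20 with limma-voom, 2 with no count filter and 21 with tumours 1 and 2 alone, with 0 to 20 on leaving out a tumour. Genes that differed from the other treatments (427) became 205 without the block, 1638 with DESeq2, 4139 with limma-voom, 1596 with no filter, and 0 to 1379 on leaving out a tumour. TE names that differed (0) became 154, 2, 552 and 1 in the same order, and 0 to 594.

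The following settings, all without docetaxel tumour 3, were chosen after seeing the data. Without the combination tumours there were 4024 genes higher, 4426 lower, 824 TE names higher, 21 lower, and 0 genes and 1 TE name that differed from the other treatments. Total counts gave 1992, 3939, 582 and 21, with 1567 and 729 that differed. Removing ribosomal and mitochondrial RNA gave 3779, 3293, 762 and 19, with 1312 and 590. Scaling TE names by TE counts gave 5 higher, 60 lower and 90 that differed. Without the block 2282, 2506, 585 and 13 were called, with 0 and 403 that differed.

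The TE share difference ran from −6.26 to 7.4 percentage points on leaving out a tumour. Directions turned in these cases. Xbp1 ran from −0.11 to 1.16 and Dtx3l from −0.070 to 2.64 on leaving out a tumour. mt-Tq ran from −3.14 to 2.59 (−2.75 without tumour 2) and was −5.89 without the block. mt-Tp ran from −2.51 to 1.32, was −4.52 without the block and 0.98 with limma-voom, and with tumours 1 and 2 alone was 1.33. In the fits without docetaxel tumour 3 it was 1.33 without the combination, 1.15 with total counts and 1.41 without the block. MERVL-int ran from −1.38 to 1.96 (−1.17 without tumour 2; −2.14 without the block) and MT2_Mm from −0.44 to 1.80 (−0.31; −1.17). IAPLTR2_Mm was −0.70 and B2_Mm2 −0.61 without the block, and B2_Mm2 was −0.044 when scaled by TE counts without tumour 3. Xbp1 without tumour 2 was −0.05. The cause was not tested. Across all results and settings 1083 values kept direction and call, 293 lost the call, 77 gained it and 21 turned. With 3.27 M gene counts, the input of tumour 3 limits what can be seen of low genes.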

Other observations

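Among RefSeq classes of the genes tested without tumour 3, 861 long noncoding RNAs had 126 higher (14.6%) and 50 lower (5.81%) in J2, at a median of 0.26. The 611 pseudogenes had 101 higher (16.5%) and 153 lower (25%). Of all genes 18.9% were higher and 20.9% lower, so neither class had more than its share of rises. Macrophage markers were lower for 4 of 6, both with and without tumour 3, and their summed level was 288, 388 and 158 CPM in the inputs of tumours 1, 2 and 3 and 108, 129 and 140 CPM in J2. Fibroblast markers were lower for 2 of 6, and stood at 315, 106 and 2478 CPM in the inputs and 359, 66.5 and 803 CPM in J2. T cell markers were called for 0 of 5 by edgeR in either fit, at 3.75, 4.76 and 2.32 CPM in the inputs. The hairpin gene Mir6236 went the other way from most hairpins, from 75.7, 93.9 and 3723 CPM to 21, 14.1 and 362 CPM.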
